A study of Homo sapiens with 9 samples.

Results

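The semaphorins, plexins and neuropilins are guidance cues and their receptors, and they are described here in 786-0 cells, a clear cell renal cell carcinoma line. Members were taken by gene symbol and protein-coding biotype. The rule found 31 of the 58735 genes of the deposited table, namely 20 semaphorin ligands, 9 plexin receptors and 2 neuropilin co-receptors. In every group the cells lack functional VHL and HIF1α, and HIF2α is the hypoxia-inducible factor that the parental line retains. RNAseq was performed on untreated parental cells (WT genotype, control), on parental cells given 10 μM of the HIF2α antagonist PT2385 for 48 h, and on cells with a hif2a KO genotype (KO) that received no drug, each with 3 replicates and all at 21% oxygen for 48 h. How the knockout was made, whether it is 1 clone, and whether a vehicle was added to the untreated cells are not given in the sources used here. The labels do not say that replicates came from separate cultures, so the p-values measure the spread between these libraries, which may be partly technical.

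Semaphorins share an extracellular sema domain and were first known for steering growing axons, and they also act on endothelial, immune and tumour cells. Class 3 members are secreted and mostly need a neuropilin to hold them to a plexin, classes 4, 5 and 6 span the membrane, and the class 7 member is anchored by a lipid. Plexins carry an intracellular GTPase-activating domain through which they inactivate Ras-family GTPases and loosen adhesion to the matrix. Neuropilins have no enzymatic activity of their own and also bind VEGF, whose gene is a classical target of hypoxia-inducible factors.

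Between 11881000 and 14730081 reads per library were counted on genes. EPAS1, which encodes HIF2α, had 256 ± 20.0 normalized CPM in control, 239 ± 16.9 upon PT2385 treatment and 22.1 ± 2.52 in KO (SD, n = 3), where CPM are read counts scaled to library size after TMM normalization. Its log2 fold change in KO was -3.52 (adjusted p = 2.15e-09, edgeR), and the low level there goes with the genotype label. Of the 8 markers of renal epithelium and renal carcinoma, 0 were at or under 3 counts in all replicates of control or PT2385-treated cells and 1, NDUFA4L2, was so in KO. The 4 endothelial markers summed to at most 0.541 CPM and the 4 leukocyte markers to at most 0.232 CPM in any library. The 4 fibroblast markers summed to 5.18 to 10.6 CPM and the 4 neuronal markers to 7.56 to 11.6 CPM. Among them DCN and PDGFRA of the fibroblast markers and ELAVL3 of the neuronal markers were at or under 3 counts in every library. The part of these markers in the results below was not tested. In bulk RNA a change in the number of cells that express a gene and a change in its level per cell cannot be told apart.

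Of the 31 members, 25 passed edgeR's filter on low counts in at least 1 of the 3 comparisons. The 6 others were at the edge of detection in all groups, with at most 0 reads for SEMA3D, 3 for SEMA3G, 3 for PLXNA4, 4 for SEMA4G, 5 for SEMA4A and 10 for PLXNC1 in any library. Little can be said of PLXNA4 and PLXNC1 as receptors here, and exons of PLXNC1 overlap those of CEP83, which is counted on the opposite strand at 4888 reads over the 9 libraries. Differential expression was called by edgeR's quasi-likelihood test where the p-value, adjusted over all tested genes, was under 0.05.

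Upon PT2385 treatment 9 of the 24 members tested were differentially expressed, 4 higher and 5 lower, where 7.7% of all 15089 tested genes were (3.08% higher and 4.62% lower). In a paired fit, with replicate numbers as a block, 10 members and 2305 genes were called. In KO against control 16 of 25 members were, 7 higher and 9 lower, where 30.1% of 15192 tested genes were (14.7% higher and 15.4% lower). Both comparisons use the same 3 control libraries. The direct comparison of KO with PT2385 called 11 of 24 members, 5 higher and 6 lower in KO, where 18.8% of 15402 tested genes were called (8.47% higher and 10.3% lower). The median log2 fold change over the members tested was -0.06 with PT2385 and -0.14 in KO, beside 0.000993 and 0.00378 for all tested genes, and members moved in both directions. The libraries of the groups did not overlap in CPM for 9 of 24 members with PT2385 (26% of all tested genes), for 16 of 25 in KO against control (44.1%) and for 15 of 24 in KO against PT2385 (35.4%).

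**Figure D1:**
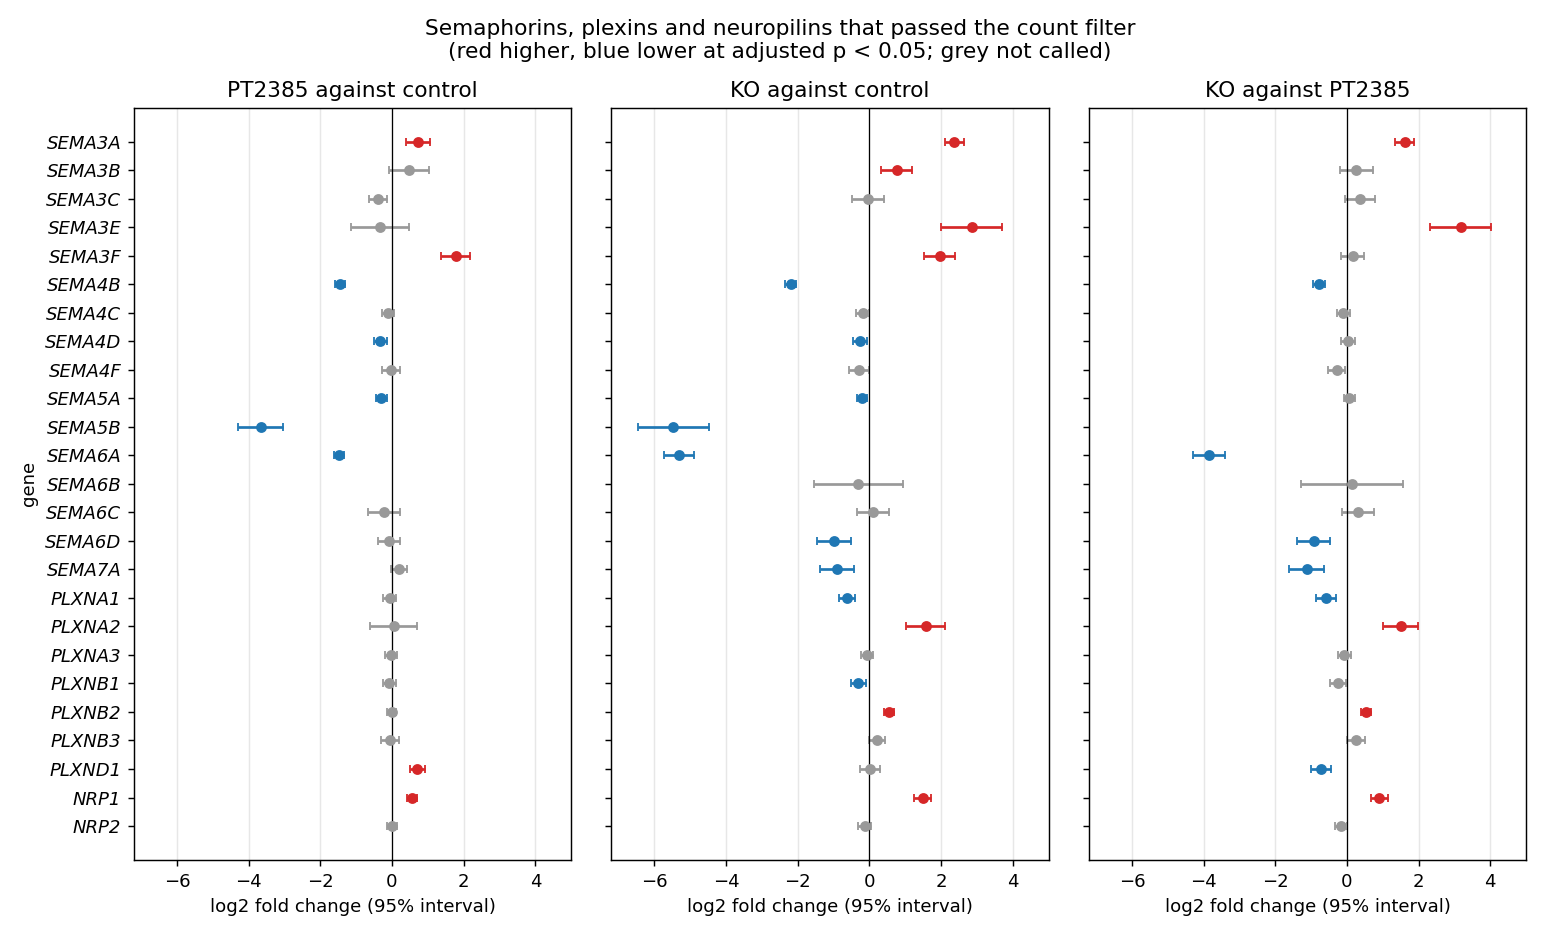
Log2 fold changes with 95% intervals (x axis) for every semaphorin, plexin and neuropilin (y axis) that passed the count filter, in the 3 comparisons of 3 against 3 libraries. Red points are higher and blue points lower at an adjusted p under 0.05 (edgeR), and grey points are not called. In KO against control the largest falls are those of SEMA5B and SEMA6A, and the class 3 ligands SEMA3A, SEMA3E and SEMA3F hold the largest rises.

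The 250 bases upstream of the RefSeq start site nearest to the annotated gene start are printed for 4 members, chosen to stand for 4 patterns of response. Whether these windows have a part in the responses was not tested. SEMA5B (chr3:123028606-123028855, minus strand) was lower upon PT2385 treatment and in KO, SEMA3F (chr3:50154808-50155057, plus strand) was higher in both, SEMA3E (chr7:83649140-83649389, minus strand) was higher in KO, and PLXND1 (chr3:129606677-129606926, minus strand) was higher with PT2385. Sequences are from RefSeq on GRCh38.p14, read 5′ to 3′ on the strand of the gene, and capitals mark ACGTG or GCGTG, the core of the hypoxia response element, or its reverse complement.
SEMA5B: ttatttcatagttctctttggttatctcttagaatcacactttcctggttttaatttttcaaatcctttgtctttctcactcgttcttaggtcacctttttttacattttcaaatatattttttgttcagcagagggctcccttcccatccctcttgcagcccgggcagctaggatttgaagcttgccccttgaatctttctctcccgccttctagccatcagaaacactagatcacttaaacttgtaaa
SEMA3F: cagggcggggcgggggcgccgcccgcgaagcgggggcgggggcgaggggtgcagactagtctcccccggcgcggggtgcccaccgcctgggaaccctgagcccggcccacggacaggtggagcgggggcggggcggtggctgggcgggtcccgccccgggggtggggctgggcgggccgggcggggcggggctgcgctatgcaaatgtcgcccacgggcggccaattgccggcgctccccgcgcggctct
SEMA3E: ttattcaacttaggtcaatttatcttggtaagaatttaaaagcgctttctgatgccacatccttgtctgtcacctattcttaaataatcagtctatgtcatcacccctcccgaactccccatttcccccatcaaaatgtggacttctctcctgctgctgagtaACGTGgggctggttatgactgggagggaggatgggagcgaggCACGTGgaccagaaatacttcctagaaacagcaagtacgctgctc
PLXND1: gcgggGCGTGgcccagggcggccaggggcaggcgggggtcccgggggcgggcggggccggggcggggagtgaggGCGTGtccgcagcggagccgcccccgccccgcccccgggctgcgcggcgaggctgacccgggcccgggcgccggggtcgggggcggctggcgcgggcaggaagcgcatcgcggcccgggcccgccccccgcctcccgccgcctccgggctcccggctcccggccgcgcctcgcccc
The SEMA5B and SEMA3F windows hold 0 copies of these letters. In SEMA3E 1 copy begins 87 bases upstream of the start site and the palindrome CACGTG, which reads as the motif on both strands, begins 45 bases upstream, and in PLXND1 copies begin 245 and 176 bases upstream. Windows were found for 27 of the 31 members (not for NRP1, SEMA3A, SEMA6A and SEMA6B), and 16 of their 48 windows (33.3%) held the motif on either strand, beside 43.2% of all 35116 windows of the same length. A match of letters is a description of the window, and windows of this length leave out distant enhancers.

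Among the class 6 ligands SEMA6A, a transmembrane ligand of PLXNA2 and PLXNA4, was all but lost in KO and partly lost with the drug. SEMA6A (ENSG00000092421, GRCh38 chromosome 5, from 116443555 to 116574823 on the minus strand) had 3789, 3698 and 3739 reads in the control replicates, 1318, 1497 and 1682 upon PT2385 treatment and 55, 145 and 126 in KO. The 3 groups did not overlap, and the control level fell to 35.9% with PT2385 and to 2.46% in KO. The log2 fold change was -1.48 with PT2385 (standard error 0.0609, adjusted p = 1.24e-08) and -5.32 in KO (standard error 0.186, adjusted p = 7.27e-09), and KO lay 14.5-fold below PT2385 (adjusted p = 1.02e-06). SEMA6A-AS1, an antisense gene that overlaps its exons, had 175 reads over the 9 libraries against 16049 for SEMA6A.

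SEMA6D, a ligand of PLXNA1, was lower in KO and was not called with the drug. Its CPM was 20.5, 15 and 14.7 in control, 17.1, 16.8 and 13.9 with PT2385 and 8.97, 10.6 and 5.51 in KO. Every KO library was below all 6 others, whereas control and PT2385 overlapped. In KO it fell by 0.99 on the log2 scale against control (adjusted p = 0.00515) and by 0.93 against PT2385 (adjusted p = 0.00871), and with PT2385 the change was -0.08 (95% interval -0.39 to 0.23). SEMA6C, at 29 to 49 reads per library, and SEMA6B, at 1 to 16, were not differentially expressed in any comparison in which they were tested.

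In class 5, whose members carry thrombospondin repeats beside the sema domain, SEMA5B was almost lost while SEMA5A moved little. SEMA5B (ENSG00000082684, chromosome 3, from 122909082 to 123028605 on the minus strand) had 191, 141 and 106 reads in control, 16, 13 and 9 upon PT2385 treatment and 1, 9 and 1 in KO. Control stood far above both other groups, which touched at 9 reads. The fall was 12.7-fold with PT2385 (log2 fold change -3.67, standard error 0.294, adjusted p = 5.94e-06) and 44.4-fold in KO (-5.47, standard error 0.454, adjusted p = 5.53e-06). KO and PT2385 were both too low for the filter, and without it the log2 difference of KO from PT2385 was -1.83 (standard error 0.554, adjusted p = 0.00846, edgeR). The fit without the filter also gave SEMA3C with PT2385 an adjusted p of 8.76e-08, where the filtered fit gave 0.0573. At these few reads no difference between KO and PT2385 is read from it. Leaving out KO replicate 2, which holds most of the reads there, gave -7.19 for KO against control.

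SEMA5A, a ligand of PLXNB3, had 339, 331 and 303 CPM in control, 267, 285 and 244 with PT2385 and 273, 291 and 273 in KO. Both groups lay below control, by -0.29 on the log2 scale with PT2385 (adjusted p = 0.0254) and by -0.21 in KO (adjusted p = 0.0335). Leaving out 1 library kept the log2 fold change between -0.35 and -0.24 with PT2385 and between -0.26 and -0.17 in KO. DESeq2 gave adjusted p of 0.00816 with PT2385 and 0.0316 in KO. The edgeR fit with replicate numbers as a block gave 4.04e-04 and 0.0123. Not every fit that left out a library called these small changes. With PT2385 the adjusted p was 0.119 without control replicate 1 and 0.134 without control replicate 2, and in KO it was 0.133, 0.108 and 0.113 without control replicate 1, control replicate 2 and KO replicate 1.

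Class 4 was led by SEMA4B, a transmembrane semaphorin that binds the postsynaptic scaffold PSD95. SEMA4B (ENSG00000185033, chromosome 15, from 90160604 to 90229679 on the plus strand) had 5502, 5080 and 5384 reads in control, 2080, 2039 and 2428 upon PT2385 treatment and 1233, 1462 and 1319 in KO. As with SEMA6A, the 3 groups were fully separated in the order control, PT2385, KO. The log2 fold change was -1.44 with PT2385 (standard error 0.0651, adjusted p = 2.91e-08) and -2.20 in KO (standard error 0.0685, adjusted p = 3.17e-09), and the level in KO was 1.71-fold below that with PT2385 (adjusted p = 5.70e-05).

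SEMA4D, the ligand of PLXNB1 and an immune regulator, had 54.3, 45.8 and 52.4 CPM in control, 39.7, 43.3 and 38.8 with PT2385 and 39.2, 45.4 and 40.2 in KO. Its log2 fold change was -0.33 with PT2385 (adjusted p = 0.0358) and -0.28 in KO (adjusted p = 0.0381). The call with PT2385 was lost without control replicates 1 or 3 or any of the 3 PT2385 replicates, with adjusted p between 0.0540 and 0.153, and was held without control replicate 2 (0.0386). In KO it was lost without control replicates 1 or 3 or KO replicates 1 or 3 (0.0603 to 0.142) and with DESeq2 (0.0508). With replicate numbers as a block SEMA4D was called with PT2385 (adjusted p = 0.0122, edgeR) and in KO (0.0359). DESeq2 also called it with PT2385 (0.0340). SEMA4C, a ligand of PLXNB2, and SEMA4F were not differentially expressed in any comparison, with log2 fold changes between -0.29 and -0.03, although SEMA4F was called lower in KO without control replicate 2 (-0.40, adjusted p = 0.0475).

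**Figure D2:**
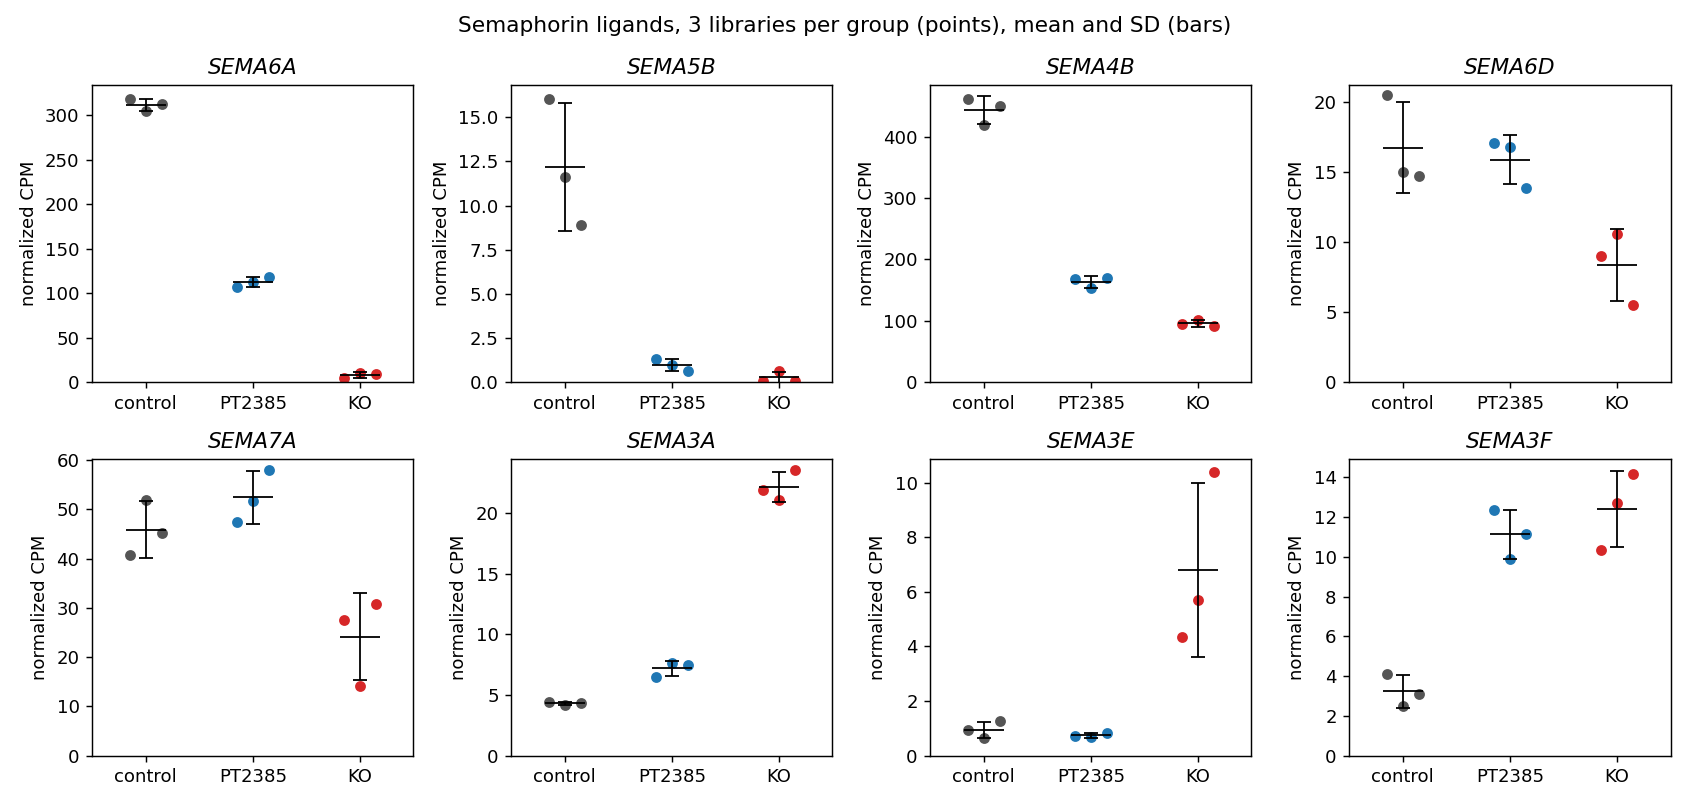
Normalized CPM (y axes, from 0) of 8 semaphorin ligands in the control, PT2385 and KO groups (x axes), with a point for each of the 3 libraries and bars for the mean and SD. SEMA6A and SEMA4B step down from control to PT2385 to KO, and SEMA6D and SEMA7A are low in KO. SEMA3A, SEMA3E and SEMA3F are high in KO, with SEMA3A and SEMA3F also above control in every PT2385 library.

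Several of the secreted class 3 ligands rose. Of the 5 that were tested, 2 rose upon PT2385 treatment (SEMA3A and SEMA3F), 4 rose in KO (these and SEMA3B and SEMA3E), and 0 fell in either comparison, although SEMA3C was called lower with PT2385 in the paired fit and by DESeq2. Of all tested genes 3.08% were higher and 4.62% lower with PT2385, and 14.7% were higher and 15.4% lower in KO. The median log2 fold change of the 5 ligands was 0.48 with PT2385 and 1.96 in KO. All but SEMA3C were low genes in control, with at most 67 reads per library.

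SEMA3F, which repels cells through NRP2, had 49, 30 and 37 reads in control, 153, 132 and 159 with PT2385 and 134, 183 and 206 in KO (ENSG00000001617, chromosome 3, from 50155045 to 50189075 on the plus strand). Both groups were above control in every replicate and overlapped each other. The rise was 3.43-fold with PT2385 (log2 fold change 1.78, standard error 0.188, adjusted p = 7.17e-05) and 3.88-fold in KO (1.96, standard error 0.201, adjusted p = 3.11e-05). KO and PT2385 differed by 0.16 on the log2 scale, with a 95% interval of -0.17 to 0.49 (adjusted p = 0.515).

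SEMA3A, the founding repellent of the family and a ligand of NRP1 with A-type plexins, rose stepwise in the order of the groups (ENSG00000075213, chromosome 7, from 83955777 to 84492724 on the minus strand). It had 53, 51 and 52 reads in control, 80, 102 and 107 with PT2385 and 283, 304 and 342 in KO. No group overlapped another. The log2 fold change was 0.73 with PT2385 (standard error 0.155, adjusted p = 0.0129), 2.37 in KO (standard error 0.122, adjusted p = 1.38e-07) and 1.62 between KO and PT2385 (adjusted p = 8.21e-06). The smaller rise with PT2385 was not called without control replicate 2 (adjusted p = 0.0661) or PT2385 replicate 2 (0.0715).

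SEMA3E, which can bind PLXND1 without a neuropilin, was near the edge of detection except in KO (ENSG00000170381, chromosome 7, from 83363238 to 83649139 on the minus strand). It had 11, 8 and 15 reads in control, 9, 9 and 12 with PT2385, and 56, 82 and 151 in KO. The KO libraries were widely spread and still lay above all others. The log2 fold change was 2.86 against control (standard error 0.387, adjusted p = 2.28e-04) and 3.17 against PT2385 (adjusted p = 2.34e-04), and with PT2385 it was -0.34 (95% interval -1.14 to 0.47).

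SEMA3B, a neighbour of SEMA3F on chromosome 3 that is often silenced in tumours, had 67, 39 and 47 reads in control, 71, 105 and 61 with PT2385 and 91, 102 and 106 in KO. In KO the log2 fold change was 0.76 (adjusted p = 0.0146), which was not called without control replicate 2 (0.0722) or control replicate 3 (0.0573). With PT2385 it was 0.48 and was not called (adjusted p = 0.318). SEMA3C, which signals through both neuropilins and PLXND1, was the class 3 ligand with by far the most reads, and its replicates were widely spread. It had 403, 496 and 603 CPM in control, 347, 388 and 406 with PT2385 and 480, 327 and 652 in KO.

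With PT2385 the change of SEMA3C was -0.40 on the log2 scale (standard error 0.115), which did not pass the threshold (adjusted p = 0.0573). The paired fit gave an adjusted p of 2.22e-04 and DESeq2 one of 0.00968. It was also called without control replicate 1 (adjusted p = 0.00657) or PT2385 replicate 3 (0.0177), while without control replicate 3 it was -0.24 (adjusted p = 0.204) and it was not called without control replicate 2, PT2385 replicate 1 or PT2385 replicate 2 either. In KO against control the difference was -0.03 with a 95% interval of -0.48 to 0.42. Against PT2385 the value in KO was 0.35, 0.57 without KO replicate 2 (adjusted p = 0.00927) and 0.08 without KO replicate 3 (adjusted p = 0.722).

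SEMA7A, the lipid-anchored ligand of PLXNC1 and of β1 integrin, was lower in KO alone among these comparisons with control. It had 484, 630 and 539 reads in control, 588, 690 and 830 with PT2385, and 356, 203 and 447 in KO. The fall in KO was 0.92 on the log2 scale against control (standard error 0.216, adjusted p = 0.00786) and 1.12 against PT2385 (adjusted p = 0.00435). Every KO library was below all others in CPM, while PT2385 and control overlapped and differed by 0.19 (95% interval -0.03 to 0.41).

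Levels of different ligands were compared per kilobase of annotated exon. In control SEMA3C had 82.1 ± 16.4 CPM per kilobase, SEMA4B 63.5 ± 3.20, SEMA6A 28.6 ± 0.612, SEMA5A 26.4 ± 1.54 and SEMA7A 12.1 ± 1.498 (SD, n = 3). The libraries of SEMA3C and SEMA4B only just touched, with a lowest value of 66.0 for the former and a highest of 66.03 for the latter, and with the longest transcript as the length SEMA4B came first (117 against 103). In KO the order was SEMA3C, SEMA5A, SEMA4B and SEMA7A, and SEMA6A was 13th of the 20 ligands. Summed over all ligands the level was 231.5 ± 13.7 CPM per kilobase in control, 149.7 ± 5.95 with PT2385 and 142.5 ± 27.2 in KO.

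Class 3 made up 36.1% ± 4.89 of that sum in control, 44.4% ± 1.49 with PT2385 and 59.8% ± 7.76 in KO, and most of it was SEMA3C. Class 4 made up 33.0% ± 2.57, 23.4% ± 1.19 and 17.7% ± 4.28, and class 6 made up 13.5% ± 1.05, 8.49% ± 0.106 and 1.72% ± 0.613, in the same order of groups. The groups did not overlap in the share of class 3, class 4 or class 6. In class 4 the highest KO library (22.17%) came close to the lowest PT2385 library (22.28%). The class 3 sum itself was 84.06 ± 16.2 CPM per kilobase in control, 66.5 ± 4.80 with PT2385 and 86.7 ± 27.3 in KO, and its groups overlapped, whereas the class 4 sum went from 76.3 ± 3.53 to 34.97 ± 1.16 and 24.5 ± 1.28. With the longest transcript as the length, class 3 made up 31.1%, 40.9% and 57.2%.

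**Figure D3:**
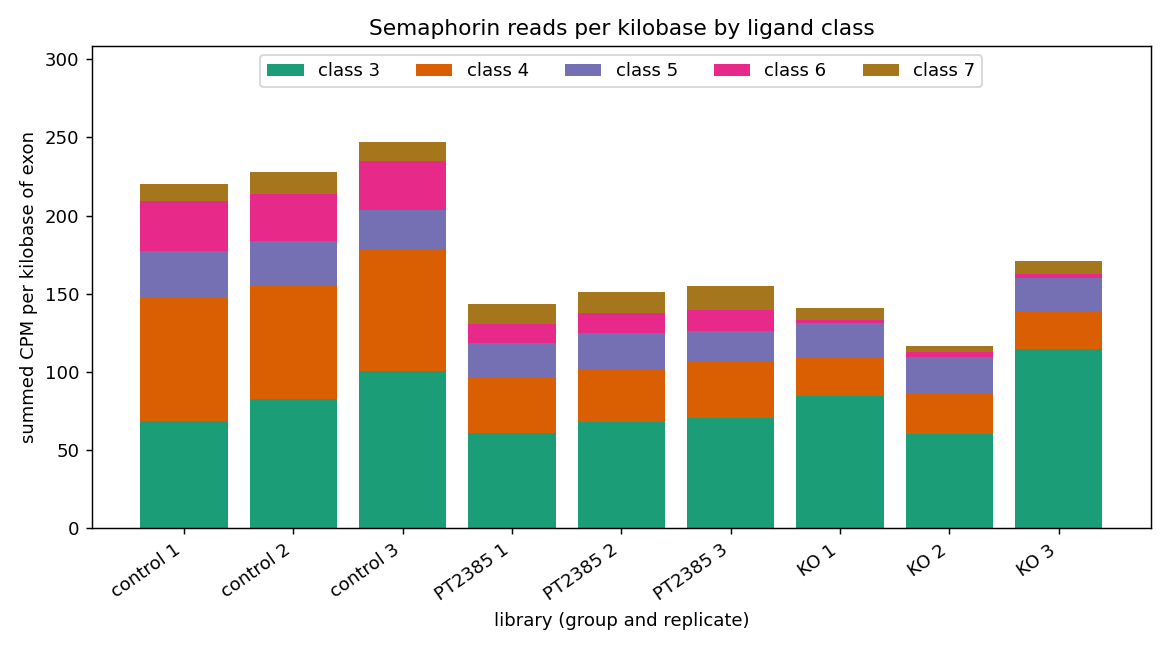
Summed CPM per kilobase of annotated exon (y axis) of the 20 semaphorin genes in each of the 9 libraries (x axis), stacked by ligand class. The control libraries reach 220.1 to 246.7 and the others 116.4 to 170.6, with the class 4 and class 6 parts smaller in every PT2385 and KO library than in any control library.

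Of the co-receptors NRP1 rose in both comparisons and NRP2 in neither. NRP1, which takes SEMA3A and VEGF (ENSG00000099250, chromosome 10, from 33177492 to 33336262 on the minus strand), had 1080, 1043 and 1025 reads in control, 1605, 1691 and 1858 with PT2385 and 2897, 4160 and 3092 in KO. No group overlapped another, and the steps went from control to PT2385 to KO. The rise was 1.47-fold with PT2385 (log2 fold change 0.55, standard error 0.0604, adjusted p = 9.46e-05) and 2.79-fold in KO (1.48, standard error 0.105, adjusted p = 1.79e-06), and KO exceeded PT2385 by 0.91 (adjusted p = 1.92e-04).

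NRP2, the partner of SEMA3F, had 413, 357 and 391 CPM in control, 403, 375 and 388 with PT2385 and 337, 322.5 and 386 in KO. The groups overlapped. With PT2385 the log2 fold change was 0.00 (95% interval -0.14 to 0.14) and in KO it was -0.14 (-0.31 to 0.04). Without KO replicate 3 NRP2 was called lower in KO against control (-0.21, adjusted p = 0.0248) and against PT2385 (-0.24, adjusted p = 0.0284). Per kilobase NRP1 stood at 0.273 ± 0.0150 of NRP2 in control, 0.400 ± 0.0101 with PT2385 and 0.849 ± 0.212 in KO (SD, n = 3), so the balance of the co-receptors moved towards NRP1 while NRP2 was ahead in 8 of 9 libraries.

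Among the plexins 1 of the 7 tested was differentially expressed upon PT2385 treatment (7.7% of all tested genes) and 4 of 7 in KO (30.1%). The most abundant was PLXNB2, a receptor of class 4 semaphorins, with 4589, 4783 and 4355 reads in control, 4491, 5231 and 5490 with PT2385 and 7364, 8108 and 7522 in KO. It rose in KO alone (log2 fold change 0.54, standard error 0.0621, adjusted p = 7.05e-05), every KO library being above all others, and KO exceeded PT2385 by 0.53 (adjusted p = 2.78e-04). With PT2385 its change was -0.01 (95% interval -0.14 to 0.12).

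PLXNA1, a receptor for class 3 ligands bound to neuropilins and for SEMA6D, had 199, 205 and 206 CPM in control, 177, 185 and 221 with PT2385 and 129.8, 107.8 and 154.6 in KO. KO lay below all 6 other libraries. It fell by 0.62 against control (adjusted p = 9.90e-04) and by 0.57 against PT2385 (adjusted p = 0.00864) on the log2 scale. PLXNA2, a receptor of SEMA6A, was a low gene that went up in KO and was not called with PT2385, although SEMA6A fell in both. It had 23, 17 and 13 reads in control, 18, 23 and 20 with PT2385 and 48, 63 and 71 in KO. Its rise in KO was 1.56 against control (standard error 0.249, adjusted p = 6.98e-04) and 1.5 against PT2385 (adjusted p = 8.03e-04), and the PT2385 and control groups overlapped.

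PLXND1, a plexin of the vasculature that binds SEMA3E and SEMA3C complexes, was the single plexin that rose upon PT2385 treatment (ENSG00000004399, chromosome 3, from 129555214 to 129606676 on the minus strand). It had 190, 188 and 205 reads in control, 324, 328 and 412 with PT2385 and 175, 249 and 255 in KO. In CPM the PT2385 libraries lay above all others, and KO overlapped control. The log2 fold change was 0.71 with PT2385 (standard error 0.0991, adjusted p = 7.26e-04) and 0.01 in KO (95% interval -0.26 to 0.28). KO was lower than PT2385 by 0.72 (adjusted p = 0.00209), so for this gene the drug and the knockout differed beyond the spread between replicates.

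PLXNB1, the receptor of SEMA4D, had 32.6, 28.9 and 31.1 CPM in control, 27.9, 29.4 and 30.7 with PT2385 and 22.1, 25.4 and 26.2 in KO. Its log2 fold change in KO was -0.31 (adjusted p = 0.0311), which was not called without control replicate 1 (0.113), control replicate 3 (0.0819) or KO replicate 1 (0.121), nor with DESeq2 (0.05004). PLXNA3, which had 103.5 to 121.7 CPM over all libraries, and PLXNB3, a receptor of SEMA5A at 13.6 to 18.4 CPM, were not differentially expressed in any comparison.

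**Figure D4:**
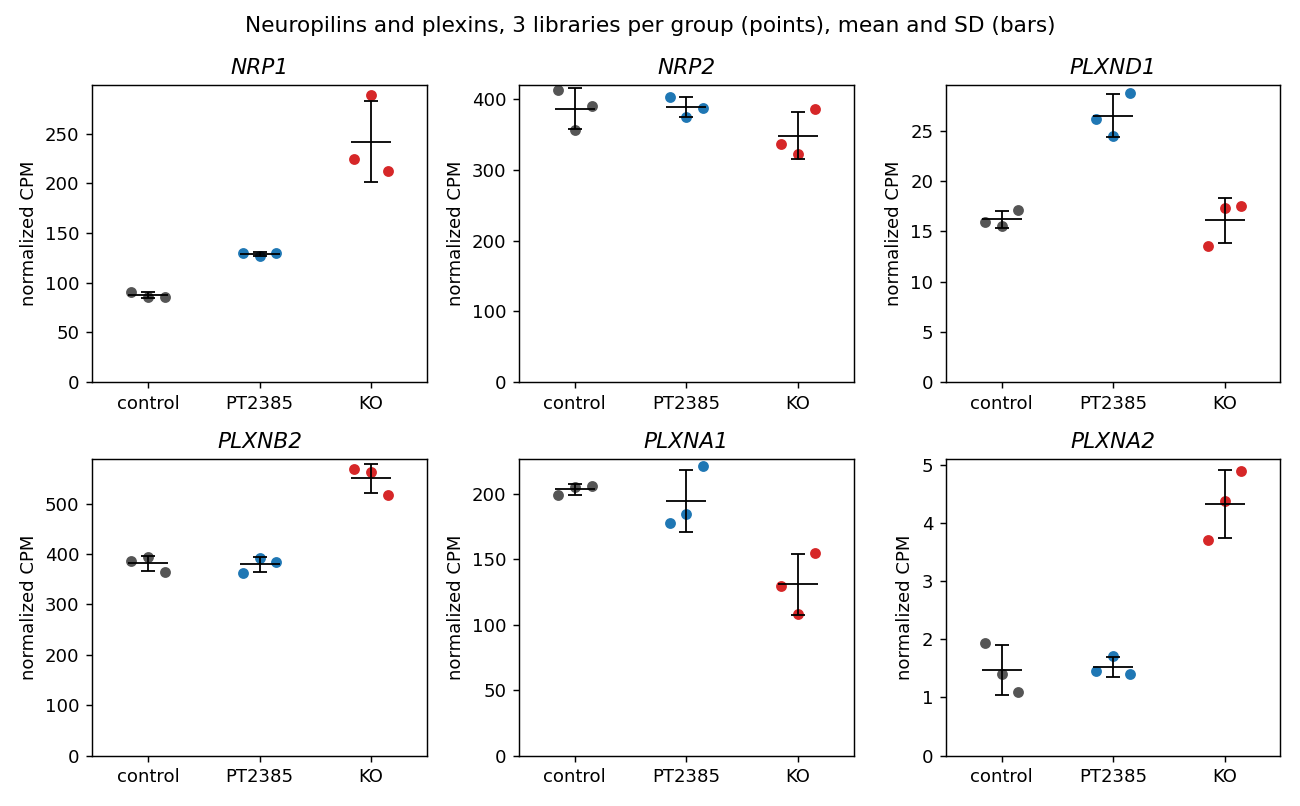
Normalized CPM (y axes, from 0) of NRP1, NRP2 and 4 plexins in the control, PT2385 and KO groups (x axes), with a point for each of the 3 libraries and bars for the mean and SD. NRP1 rises from control to PT2385 to KO and NRP2 stays within its spread, PLXND1 is high in the PT2385 libraries, and PLXNB2, PLXNA1 and PLXNA2 differ in KO.

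By known ligand and receptor pairs, SEMA3A and NRP1 rose together in both comparisons with control. SEMA3F rose in both while NRP2 was not called, SEMA3E rose in KO and PLXND1 with PT2385, and SEMA6A fell in both while PLXNA2 rose in KO. SEMA6D and PLXNA1 both fell in KO, as did SEMA4D by 1.21-fold and PLXNB1 by 1.24-fold. SEMA4C was not called while PLXNB2 rose in KO, and PLXNC1, the plexin of SEMA7A, had at most 10 reads in any library.

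The direct comparison of KO with PT2385 does not use the control libraries, though it shares its PT2385 and KO libraries with the comparisons above. In it SEMA6A, SEMA4B, SEMA6D, SEMA7A, PLXNA1 and PLXND1 were lower in KO, and SEMA3A, SEMA3E, NRP1, PLXNA2 and PLXNB2 were higher. Of the 11, SEMA6A, SEMA4B, SEMA3A and NRP1 had moved in the same direction with PT2385 and moved further in KO. PLXND1 was the member in which PT2385 stood apart from both other groups, and in the other 6 KO did. SEMA3F, SEMA4D and SEMA5A, which were called in both comparisons with control, did not differ between KO and PT2385 beyond the spread, with 95% intervals of the log2 difference of -0.17 to 0.49, -0.16 to 0.23 and -0.09 to 0.23.

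Other genes of the pathway were counted from lists chosen by function. Of 9 tested co-receptors and partners of plexins, NRCAM, a cell adhesion molecule that joins neuropilins, rose and IGF1R, the IGF1 receptor, fell upon PT2385 treatment, beside 3.08% of all tested genes higher and 4.62% lower. In the paired fit GPC1 also rose and MET also fell, where 1030 of all 15089 tested genes were higher and 1275 lower. In KO 3 rose (NRCAM, L1CAM and GPC1) and 2 fell (IGF1R and MET), beside 14.7% of all tested genes higher and 15.4% lower in that comparison. NRCAM had 2.91 ± 1.29 CPM in control, 9.78 ± 0.897 with PT2385 and 45.1 ± 6.35 in KO (SD, n = 3), with a log2 fold change of 3.96 in KO (adjusted p = 2.17e-07), while IGF1R fell by 1.04 in KO (adjusted p = 1.94e-06) and by 0.32 with PT2385 (adjusted p = 0.0153). Of 9 VEGF-family ligands and receptors that bind neuropilins or act beside them 3 were tested, and VEGFA fell in both, from 326 ± 9.60 CPM to 75.3 ± 5.88 with PT2385 (log2 fold change -2.12, adjusted p = 1.93e-09) and 74.4 ± 10.5 in KO (-2.12, adjusted p = 3.72e-08).

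Of 37 tested intracellular effectors of plexins and semaphorins, 4 rose and 2 fell upon PT2385 treatment (3.08% and 4.62% of all tested genes), and 15 rose and 4 fell in KO (14.7% and 15.4%). In the paired fit 6 rose and 5 fell upon PT2385 treatment, where 1030 of all 15089 tested genes were higher and 1275 lower. DPYSL2, the collapsin response mediator through which SEMA3A acts on microtubules, went in opposite directions. It had 49.8 ± 2.502 CPM in control, 36.0 ± 0.568 with PT2385 and 79.2 ± 1.46 in KO, and its log2 fold change was -0.47 with PT2385 (adjusted p = 0.00163), 0.68 in KO (adjusted p = 2.12e-05) and 1.14 between KO and PT2385 (adjusted p = 2.40e-06).

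Of 6 tested proteases that cleave semaphorins 0 were called upon PT2385 treatment (7.7% of all tested genes) and 3 fell in KO (15.4%), PCSK5, FURIN and ADAM10. With PT2385 edgeR gave 2 of them, PCSK5 and PCSK7, an unadjusted p under 0.05, DESeq2 called 0, and the paired fit had PCSK5 called lower (log2 fold change -0.26, adjusted p = 0.00413). PCSK5, a proprotein convertase like FURIN, had 177 ± 20.9 CPM in control, 148 ± 17.4 with PT2385 and 25.7 ± 5.56 in KO, and it fell by 2.76 on the log2 scale in KO (adjusted p = 1.04e-07). FURIN fell by 0.63 in KO (adjusted p = 6.58e-05), from 94.5 ± 1.31 to 60.6 ± 4.93 CPM.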

How the data were processed

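Per the labels and the study's methods, the authors trimmed reads with cutadapt, aligned them with STAR to GRCh38 and counted them per gene with featureCounts, and they deposited raw read counts for 9 libraries, 3 per group. Versions, the annotation release and the strand setting of the counting are not given in the sources used here. All columns mapped to a labelled sample. Symbols, positions and exon lengths were from GENCODE 44. Each pair of groups was fitted on its own over all genes that passed filterByExpr, with TMM scaling and the quasi-likelihood test of edgeR 4.0.16 in R 4.3.3 and Benjamini-Hochberg adjustment. Standard errors were the absolute log2 fold change, without shrinkage, over the root of F. An exact permutation test of 3 against 3 cannot go below 0.1 and was not used. The script was tested on simulated data. DESeq2 1.42.0, other scalings and filters, a paired fit with replicate numbers as a block, a joint model of all 9 libraries, the longest transcript as gene length and leaving out each library were alternatives. Same-numbered PT2385 and control libraries deviated together (correlations 0.138 to 0.458 over genes), so their numbers pair them by the rule that every correlation exceed 0.1. Replicate 2 was the closest to that limit, at 0.138, beside 0.0922 for PT2385 replicate 2 with control replicate 1. The values with PT2385 are from the unpaired fit unless another fit is named.

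Members called in any comparison were described by every library's value, the other tested members by their ranges, and untested ones by their highest count. From each pathway list the called genes with a mean of at least 100 counts and the largest changes were given values, 2 per comparison with control, except for some intracellular effectors that are not reported here, and the other genes named with counts of 5 or fewer were named after their values were seen, as were NRCAM and the opposite changes of DPYSL2. The members and lists were chosen with earlier results of these data known.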

Additional observations from a re-analysis of the deposited data

How the results depend on the processing

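The number of members called ranged from 8 to 10 upon PT2385 treatment (9 as reported), from 14 to 16 in KO against control (16) and from 10 to 13 in KO against PT2385 (11) under other tools, scalings and filters. Leaving out 1 library gave 7 to 9, 13 to 16 and 11 to 13. Of 504 other fits of the tested members 7 changed a call, and of 438 that left out a library 27 did, and 0 calls changed direction in either set. Without the filter SEMA3C was also called in KO against PT2385 (adjusted p = 1.08e-04, edgeR), where the filtered fit gave 0.238 and DESeq2 0.482. With library size alone SEMA4D was not called with PT2385 (adjusted p = 0.0514, edgeR). Over all genes, leaving out a library gave 574 to 1451 calls with PT2385 (1162 as reported; 574 without PT2385 replicate 2) and 1836 to 3190 in KO against PT2385 (2897). In KO against control same-numbered libraries correlated at 0.0587 to 0.486, and in KO against PT2385 at 0.0928 to 0.417. Replicate 2 was lowest in both and alone missed the rule of 0.1, so whether the numbers pair these libraries is undecided. The replicate block gave 16 members in KO against control, where 5501 of 15192 tested genes were called (4566 without the block). In KO against PT2385 it gave 11, where 3783 of 15402 were called (2897 without the block). With PT2385 the block added SEMA3C and changed no other member's call. SEMA3A, SEMA3B, SEMA3E, SEMA3F, PLXNA2 and SEMA5B rest on few reads in at least 1 group, which limits small differences.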

Other observations

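Of 20 tested guidance cues and receptors outside the semaphorin system, 3 rose (EFNB2, EPHA4 and SLIT2) and 2 fell (EFNA1 and EFNA5) upon PT2385 treatment, beside 3.08% of all tested genes higher and 4.62% lower. In KO 8 of 21 rose and 3 fell (NEO1, EFNA5 and ROBO1), beside 14.7% and 15.4%. SLIT2, a secreted repellent that acts through ROBO receptors, had 4.97 ± 0.250 CPM in control, 7.63 ± 0.450 with PT2385 and 18.2 ± 0.240 in KO (SD, n = 3). It rose by 0.61 on the log2 scale with PT2385 (adjusted p = 0.0244, edgeR; 0.0601 with DESeq2) and by 1.89 in KO (adjusted p = 7.33e-07). NTN4, a netrin of basement membranes, rose by 1.62 in KO (adjusted p = 2.12e-05). EFNA1, an ephrin ligand, fell by 0.80 with PT2385 (adjusted p = 0.00161), and EPHA4, an ephrin receptor, rose by 0.61 (adjusted p = 0.00407).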
